A study of Mus musculus with 26 samples.

Results

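Axonemal dynein heavy chains are the motor subunits of the dynein arms, and 10 of their genes (*Dnah1*, *Dnah2*, *Dnah3*, *Dnah5*, *Dnah7a*, *Dnah8*, *Dnah10*, *Dnah11*, *Dnah12* and *Dnah17*) were taken by gene symbol from a table of 51124 genes. All 10 had a row, and all 10 passed the filter on low values. The table comes from a study of how PIWI proteins cut RNA in the mouse testis. Binding sites for piR-A, an abundant piRNA of pachytene spermatocytes, were placed in the 3′UTR of *Ythdc2*, a helicase gene of meiotic germ cells, and total RNA of whole adult testes was sequenced after depletion of ribosomal RNA. Wild-type mice (WT, libraries N1 and N2) carried no site. Homozygous *10xPerf* mice (N3 and N4) carried 10 tandem sites with full complementarity to piR-A. Homozygous *10xBulge* mice (N5 and N6) carried 10 sites with mismatches at the centre of the piRNA, where PIWI proteins cut. Both knock-in alleles were made with Cas9 in embryos of the B6D2F1/J hybrid, and the labels name a separate mouse for every library.

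Dynein arms sit in rows on the outer doublet microtubules of motile cilia and of the sperm tail, and their heavy chains convert ATP hydrolysis into sliding between doublets. Outer arms drive beat frequency and pair a beta with a gamma heavy chain, whereas inner arms shape the bend and include a two-headed species, inner arm f (also called I1), and several single-headed ones. Sperm tails and somatic cilia use different outer arm chains: *Dnah8* and *Dnah17* encode the gamma and beta chains of the sperm outer arm, and *Dnah5* encodes the gamma and *Dnah11* and *Dnah9* the beta chains of airway and other somatic cilia. In the testis, transcription of many tail genes starts in spermatocytes, well before the tail itself is built in spermatids.

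Values are DESeq2-normalized read counts as deposited, and libraries held roughly 41.1 to 61.6 M reads. Genotypes were compared with limma on log2(value + 1), which understates changes of low genes, over 23782 genes with all 6 libraries in the fit, and an adjusted p under 0.1 was called a change. Of the 10 spermatid markers checked, which include protamine and acrosome genes, all 10 were lower in *10xBulge* than in WT, with a summed level of 1421 to 2866 normalized counts against 567778 to 794304. Of the 10 spermatocyte markers, 0 passed the test in limma and 0 had an unadjusted p under 0.05, and their summed level was 80910 to 124436 in *10xBulge* and 110888 to 122918 in WT. Among somatic markers, 5 of 10 Sertoli, 6 of 8 Leydig and 5 of 6 macrophage genes were higher in *10xBulge*, and 1 of 8 spermatogonial markers, *Kit*, was higher. Beside these counts, 23.0% of all genes tested were lower in *10xBulge* than in WT (5466) and 11.4% higher (2712). With library totals as the scaling, 4792 genes were lower and 5777 higher. In *10xPerf*, 0 of the 52 germ cell and somatic markers passed the test in limma, and 0 had an unadjusted p under 0.05. *Ythdc2* lay between 827 and 2458 normalized counts and passed the test in no comparison. In whole testis, fewer cells of a type and less RNA per cell cannot be told apart.

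Per kb of transcript, the sperm outer arm chains stood above all others. In WT, *Dnah8* had 6242 and 11391 normalized counts per kb and *Dnah17* had 2264 and 2382, followed by *Dnah1* with 1241 and 1275. Among the 10 members, *Dnah2*, *Dnah7a*, *Dnah12*, *Dnah3* and *Dnah10* came next in that order, each overlapping its neighbour in the WT libraries. They lay between 320.7 (*Dnah3* in N1) and 964 (*Dnah2* in N1) per kb. Outside the members, *Dnah7b*, *Dnah7c*, *Dnah14* and *Dnah6* fell among them, with WT means of 817, 693, 561 and 433 per kb. A gap of 18.3-fold between means separated *Dnah10* from *Dnah11*, which had 19.4 and 25.7 per kb, and *Dnah5* was lowest, with 4.70 and 5.38. The members of somatic cilia were present at a small level: *Dnah5* and *Dnah11* together made up 0.0354% to 0.173% of the summed level per kb of the 15 axonemal heavy chain genes in the table, and *Dnah8* and *Dnah17* together 49.4% to 64.1%. *Dnah9*, a somatic chain outside the members, made up 0.128% to 0.499%.

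**Figure D1:**
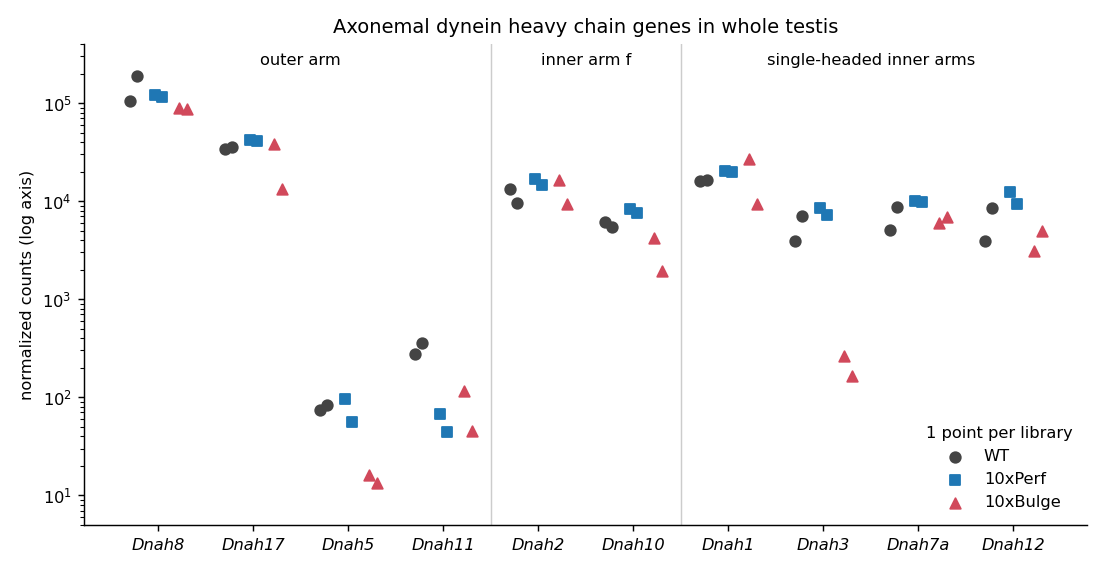
Normalized counts of the 10 axonemal dynein heavy chain genes on a log axis, with 1 point for each library of WT, 10xPerf and 10xBulge testes. The 10xBulge points of Dnah3 (265 and 166) lie far under the other 4 libraries, while Dnah8 is at 87042 or more in every library.

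These genes are long. On GRCm38, the transcripts used for length run from 12.0 kb (*Dnah12*) to 16.7 kb (*Dnah8*), and the genes span from 63.5 kb (*Dnah1*, 78 exons, chr14:31260375-31323896, reverse strand) to 321 kb (*Dnah11*, 82 exons, chr12:117877982-118199043, reverse strand). *Dnah3* lies on the reverse strand at chr7:119922671-120095280 with 61 exons, *Dnah5* on the forward strand at chr15:28203752-28472052 with 79 exons, and *Dnah8* on the forward strand at chr17:30624354-30877365 with 93 exons. *Dnah7a* is one of 3 mouse paralogs, and 20% of its stretches of 100 bases, the read length, also occur in *Dnah7b* or *Dnah7c*, so reads could be divided between these genes and the values of *Dnah7a* are uncertain to that extent. *Dnah11* shared 0.1% with a predicted gene, and the other 8 members shared no such stretch with another gene. The span of *Dnah3* overlaps that of *Lyrm1* on the opposite strand over 34293 bp, and *Lyrm1* itself had 879 and 1165 normalized counts in WT, 1236 and 1170 in *10xPerf* and 610 and 592 in *10xBulge*.

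Promoters were searched because factors that bind them were themselves measured. Rfx factors bind the X-box, Foxj1 binds forkhead motifs, and A-MYB (*Mybl1*), the main activator of pachytene genes, binds MYB motifs. The RefSeq table of promoters on GRCm38.p6, from 250 bases before to 50 bases after a start, held 9 of the 10 members (not *Dnah3*). On either strand, the MYB motif CAACTG occurred in 5 of the 9 (*Dnah7a*, *Dnah8*, *Dnah10*, *Dnah11* and *Dnah12*) and in 13.7% of all 32851 promoters, and the X-box core GTTGCCNNG in *Dnah10* and in 5% of all. The shorter X-box motif GTTGCC was found in *Dnah7a* and *Dnah10* (12.5% of all), the forkhead motif GTAAACA in *Dnah17* (3.65% of all) and the cyclic AMP response element TGACGTCA in 0 of the 9 (1.79% of all). In *Dnah7a* the MYB motif and the shorter X-box motif share bases. Windows of 30 bases around a match upstream of the RefSeq start are shown for some members. These are the most abundant outer arm chains and the 2 members that hold more than 1 motif. The windows of *Dnah8* and *Dnah17* lie inside the gene by the gene coordinates used here, which differ from the RefSeq starts. All windows are written in the direction of the gene with the match in capitals. The match is the reverse complement of the motif in all but the first and the third.
*Dnah10*, X-box core, chr5:124725055-124725084, forward strand: cgctggcgccGTTGCCCAGgtccccgttgc
*Dnah10*, MYB, chr5:124724853-124724882, forward strand: agtgtaatgtctCAGTTGagattccttctt
*Dnah8*, MYB, chr17:30626750-30626779, forward strand: gtttcagttcatCAACTGcataggtgagtt
*Dnah7a*, MYB, chr1:53706969-53706998, reverse strand: cttcgctcctcaCAGTTGcctgccaccctc
*Dnah17*, forkhead, chr11:118129402-118129431, reverse strand: caggggtacccTGTTTACctgatgaccctg
A match describes these letters only, and binding was not measured.

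The comparison of *10xBulge* with WT asked whether heavy chain RNA moves in the line in which spermatid markers are low. In *10xBulge*, 3 of the 10 heavy chain genes were lower (*Dnah3*, *Dnah5* and *Dnah11*) and 0 were higher, where 23.0% of all genes tested were lower (5466) and 11.4% higher (2712). With library totals as the scaling, the median of all genes became 0.35, and 4792 genes were lower and 5777 higher. *Dnah10* also had an unadjusted p under 0.05. Without N5, 5 members were lower, with *Dnah10* and *Dnah17* added. The members' median log2 fold change was -0.64, beside -0.026 over all genes tested. The median was -7.31 for the spermatid markers and -0.31 for the spermatocyte markers. Both *10xBulge* libraries lay below both WT libraries for 5 members (*Dnah3*, *Dnah5*, *Dnah8*, *Dnah10* and *Dnah11*), which was so for 33.2% of all genes, and above them for 0 (28.9% of all genes). The 2 *10xBulge* libraries differed from each other for several of these genes, as described after the single genes.

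The fall of *Dnah3*, a single-headed inner arm chain, was the largest of the 10. It had 3941 and 7134 normalized counts in WT, 8442 and 7292 in *10xPerf*, and 265 and 166 in *10xBulge*. The *10xBulge* libraries thus stood apart from the other 4. The log2 fold change against WT was -4.65 (limma adjusted p = 5.79e-05, 95% confidence interval -5.66 to -3.65, SE 0.45), a 25.2-fold lower level, and against *10xPerf* it was -5.22 (limma adjusted p = 2.78e-05, SE 0.45). The intervals of the other 9 members against WT all lay above that of *Dnah3*, the lowest bound among them being -3.51, for *Dnah5*. Among the 10 spermatid markers, 2 had fold changes of this size, *Acrv1* of the acrosome (-4.54) and *Izumo1* of sperm-egg fusion (-4.28), and the other 8 fell further. Within a library, the level of *Dnah3* relative to the mean log2 level of the other 9 members was -0.33 and 0.21 on the log2 scale in WT, 0.46 and 0.51 in *10xPerf* and -3.90 and -3.92 in *10xBulge*. This ratio, chosen after the values were seen, does not depend on scaling between libraries. Its difference between *10xBulge* and WT was -3.85 (exact permutation test, two-sided, p = 0.333, the smallest that 2 against 2 libraries allow). Of the summed level per kb of the 15 chains, *Dnah3* made up 2.30% and 2.70% in WT, 3.34% and 3.12% in *10xPerf*, and 0.151% and 0.121% in *10xBulge*.

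**Figure D2:**
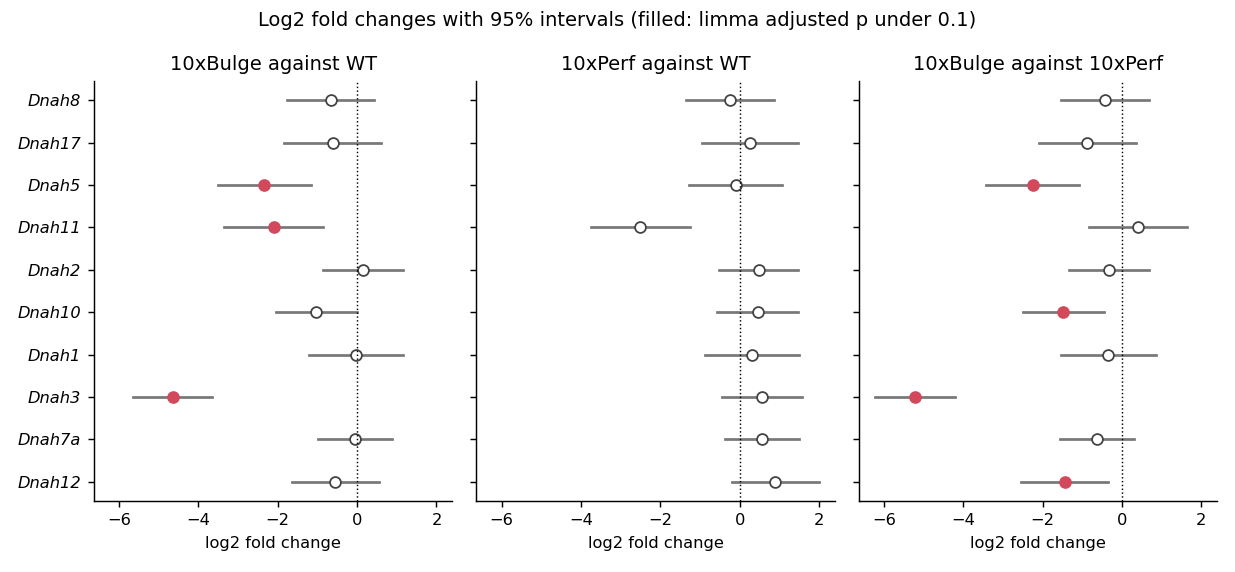
Log2 fold changes (x axis) of the 10 genes in the 3 comparisons of genotypes, with bars for 95% confidence intervals and filled points for an adjusted p under 0.1 in limma. Dnah3 is at -4.65 and -5.22 in the comparisons of 10xBulge, and Dnah11 is at -2.50 in 10xPerf against WT with an open point.

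The gamma chains of the outer arm are *Dnah8* in sperm and *Dnah5* in somatic cilia. *Dnah8* had 104146 and 190058 normalized counts in WT, 122182 and 115553 in *10xPerf*, and 89970 and 87042 in *10xBulge*. Both *10xBulge* values were the lowest, but the spread between the WT mice was wider than the gap to them (log2 fold change -0.67, 95% confidence interval -1.77 to 0.44, limma adjusted p = 0.348). *Dnah5* had 73.4 and 84.1 in WT, 96.2 and 56.0 in *10xPerf*, and 16.2 and 13.3 in *10xBulge*, roughly 13.7 reads in the library with the fewest. Its *10xBulge* libraries lay under all others, with a log2 fold change of -2.34 against WT (limma adjusted p = 0.00954, SE 0.52) and of -2.25 against *10xPerf* (limma adjusted p = 0.0111), a 5.08-fold and a 4.75-fold lower level. The log2 ratio of *Dnah8* to *Dnah5* within a library was 10.45 and 11.13 in WT, 10.30 and 10.98 in *10xPerf*, and 12.35 and 12.57 in *10xBulge*. The *10xBulge* ratio was higher than that of WT by 1.67 (exact permutation test, two-sided, p = 0.333), and *10xPerf* and WT overlapped. *Dnah5* and *Dnah3* were the 2 members with the most alike profiles over the 6 libraries (Pearson's r = 0.974 on log2 values, as a description, since the same libraries carry both).

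Of the beta chains, *Dnah17* of sperm had 33905 and 35669 normalized counts in WT, 42459 and 40779 in *10xPerf*, and 38639 and 13321 in *10xBulge*. One *10xBulge* library was thus at the level of the other genotypes and the other was the lowest of all (log2 fold change -0.62, 95% confidence interval -1.83 to 0.60, limma adjusted p = 0.436). *Dnah11*, whose loss is known to disturb left-right asymmetry and airway cilia, had 273 and 362 in WT, 67.8 and 44.2 in *10xPerf*, and 115.5 and 45.6 in *10xBulge*. WT was the highest genotype, and both knock-in lines overlapped each other. Against WT, *10xBulge* differed by -2.10 on the log2 scale (limma adjusted p = 0.0219, SE 0.55). *10xPerf* differed from WT by -2.50 (95% confidence interval -3.75 to -1.25) and did not pass (limma adjusted p = 0.122, unadjusted p = 0.00139). Without N1 or without N2 the *10xBulge* difference no longer passed (limma adjusted p = 0.111 and 0.139). In *10xPerf* it passed in 6 of 12 alternative settings and without either *10xBulge* library, with a limma adjusted p of 0.0273 without N5 and 0.0205 without N6. The log2 ratio of *Dnah17* to *Dnah11* was 6.95 and 6.62 in WT, 9.27 and 9.82 in *10xPerf*, and 8.37 and 8.16 in *10xBulge*, so that the 3 genotypes did not overlap (exact permutation test, two-sided, p = 0.333 for each of 3 comparisons).

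Inner arm f contains *Dnah2* and *Dnah10*. *Dnah2* had 13217 and 9508 normalized counts in WT, 16823 and 14502 in *10xPerf*, and 16585 and 9310 in *10xBulge*. The *10xBulge* values enclosed those of WT (log2 fold change 0.15, 95% confidence interval -0.85 to 1.15, limma adjusted p = 0.838). *Dnah10*, mutated in some infertile men with malformed sperm tails, had 6064 and 5498 in WT, 8250 and 7567 in *10xPerf*, and 4166 and 1926 in *10xBulge*. The *10xBulge* libraries were lowest and the *10xPerf* libraries highest. Against WT the log2 fold change of *Dnah10* was -1.03 (95% confidence interval -2.05 to -0.00665, limma adjusted p = 0.128), and against *10xPerf* it was -1.48 (limma adjusted p = 0.0380, SE 0.45). The latter call was lost without N3, N4 or N6. Only *Dnah10* of the pair was thus called, and a difference between the 2 chains was not tested.

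The other 3 single-headed inner arm chains did not pass the test against WT. *Dnah1*, whose human counterpart is among the most frequent genes behind short and malformed sperm tails, had 15972 and 16410 normalized counts in WT, 20271 and 19921 in *10xPerf*, and 27018 and 9290 in *10xBulge*. *Dnah1* thus had both its highest and its lowest value in *10xBulge* (log2 fold change -0.03, 95% confidence interval -1.22 to 1.16). *Dnah7a* had 5130 and 8706 in WT, 10137 and 9705 in *10xPerf*, and 5959 and 6891 in *10xBulge*. The *10xBulge* values lay between those of the WT mice (log2 fold change -0.06, 95% confidence interval -0.998 to 0.877). *Dnah12* had 3921 and 8439 in WT, 12376 and 9273 in *10xPerf*, and 3133 and 4910 in *10xBulge*. *Dnah12* overlapped between *10xBulge* and WT (log2 fold change -0.55, 95% confidence interval -1.65 to 0.54) and was lower in *10xBulge* than in *10xPerf* (a difference of -1.45 on the log2 scale, limma adjusted p = 0.0530, SE 0.49). That call was lost without N3, N4 or N5, with scaling by library totals and at a threshold of 0.05.

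In *10xPerf* against WT, 0 of the 10 members passed the test in limma, beside 0.467% of all genes higher and 0.492% lower, and 1 member, *Dnah11*, had an unadjusted p under 0.05. The median log2 fold change of the 10 was 0.38, beside 0.018 over all genes. Both *10xPerf* libraries lay above both WT libraries for 7 members (*Dnah1*, *Dnah2*, *Dnah3*, *Dnah7a*, *Dnah10*, *Dnah12* and *Dnah17*), where 20.2% of all genes did so, and below them for *Dnah11* (19.8% of all genes). The log2 fold changes of the 7 ran from 0.26 (*Dnah17*) to 0.90 (*Dnah12*), and the 95% confidence interval of each held 0. For *Dnah12*, an increase up to the upper bound of its interval, 1.99 on the log2 scale, was not excluded with 2 libraries per genotype.

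Between the knock-in lines, which both carry 10 sites and differ in the mismatches, 4 of the 10 members were lower in *10xBulge* (*Dnah3*, *Dnah5*, *Dnah10* and *Dnah12*) and 0 were higher, beside 24.1% and 12.9% of all genes (5729 and 3077). With library totals as the scaling, 5206 genes were lower and 5108 higher. Both *10xBulge* libraries lay below both *10xPerf* libraries for 7 of the 10, where 35.3% of all genes did so, and above them for 0 (30.7% of all genes). Without N3, only *Dnah3* of the 10 was called, and without N4, *Dnah3* and *Dnah5*. Without N5, *Dnah12* was not called and *Dnah1* and *Dnah17* were. The comparisons share the same *10xBulge* or WT libraries and are not independent of each other.

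The replicates of a genotype differed along GC content. The heavy chain transcripts fall into 4 with 53.4% to 55.0% GC (*Dnah1*, *Dnah2*, *Dnah10* and *Dnah17*) and 6 with 41.9% to 48.0%. In *10xBulge*, N5 exceeded N6 by 0.83 to 1.54 on the log2 scale for the 4 GC-rich members, most for *Dnah1* and *Dnah17*. The ratio was 1.32 for *Dnah11* (48.0% GC) and, outside the members, 1.998 for *Dnah9* (51.0% GC), while N6 exceeded N5 for *Dnah12*, the chain with the least GC (log2 ratio -0.65). In WT, the log2 ratio of N1 to N2 ran from -1.11 for *Dnah12* to 0.48 for *Dnah2*. Over the 10 members, the ratio of the first to the second library had a Pearson's r with GC content of 0.843 in WT, 0.858 in *10xBulge* and -0.439 in *10xPerf*. Over 12426 protein-coding genes these were 0.565, 0.486 and -0.221, and all describe genes that share the same pair of libraries. After each library's GC trend was removed, *Dnah3* had a log2 fold change of -4.57 in *10xBulge* against WT, *Dnah5* and *Dnah11* still passed, and *Dnah10* passed as well (-0.94, limma adjusted p = 0.0543). In *10xPerf* against WT, *Dnah11* then passed (-2.66, limma adjusted p = 0.0668), and in *10xBulge* against *10xPerf*, *Dnah17* did (-1.03, limma adjusted p = 0.0681). The part of GC content in the values as deposited was not otherwise tested.

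**Figure D3:**
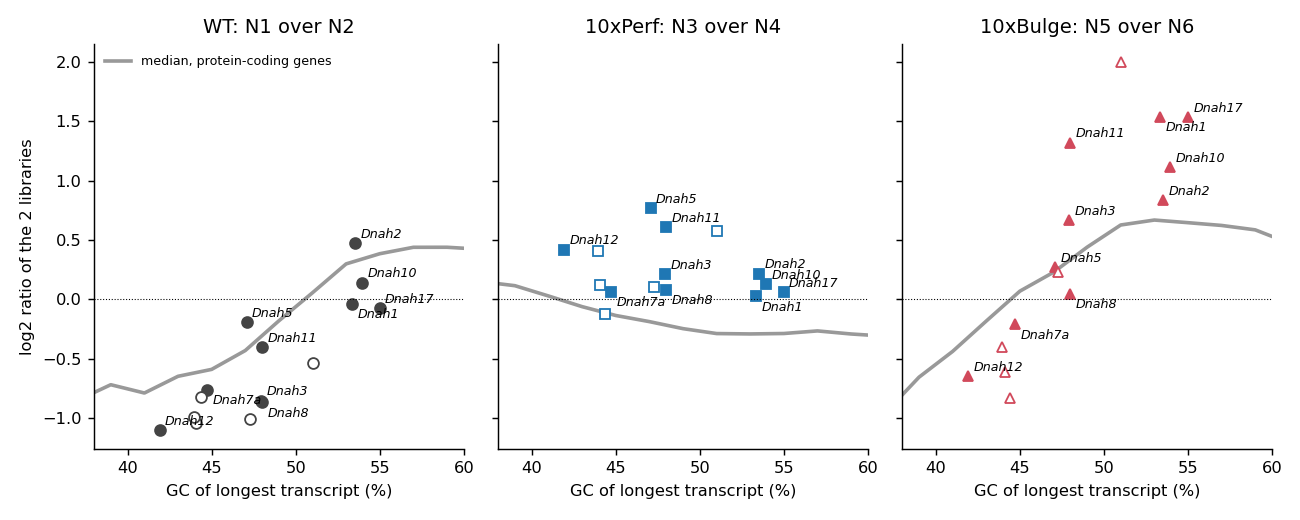
Log2 ratio of the 2 libraries of each genotype (y axis) against GC content of the longest transcript on GRCm38 (x axis, %), for the 10 members (filled, named) and 5 other axonemal heavy chains (open), with the median over protein-coding genes as a grey line. In WT and 10xBulge the chains above 53% GC lie higher than Dnah12 at 41.9% GC, and in 10xPerf they do not.

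The make-up of the heavy chain RNA also differed between libraries. *Dnah8* alone made up 35.6% to 53.0% of the summed level per kb of the 15 chains over the 6 libraries, and *Dnah17* 7.92% to 18.1%. *Dnah1* reached 14.7% in N5 and had 6.43% in N6, so that the *10xBulge* libraries differed more from each other in this share than WT and *10xPerf* did. The summed level of all 15 chains was 13959 and 21493 normalized counts per kb in WT, 20552 and 19025 in *10xPerf*, and 14232 and 11229 in *10xBulge*, the last overlapping WT.

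**Figure D4:**
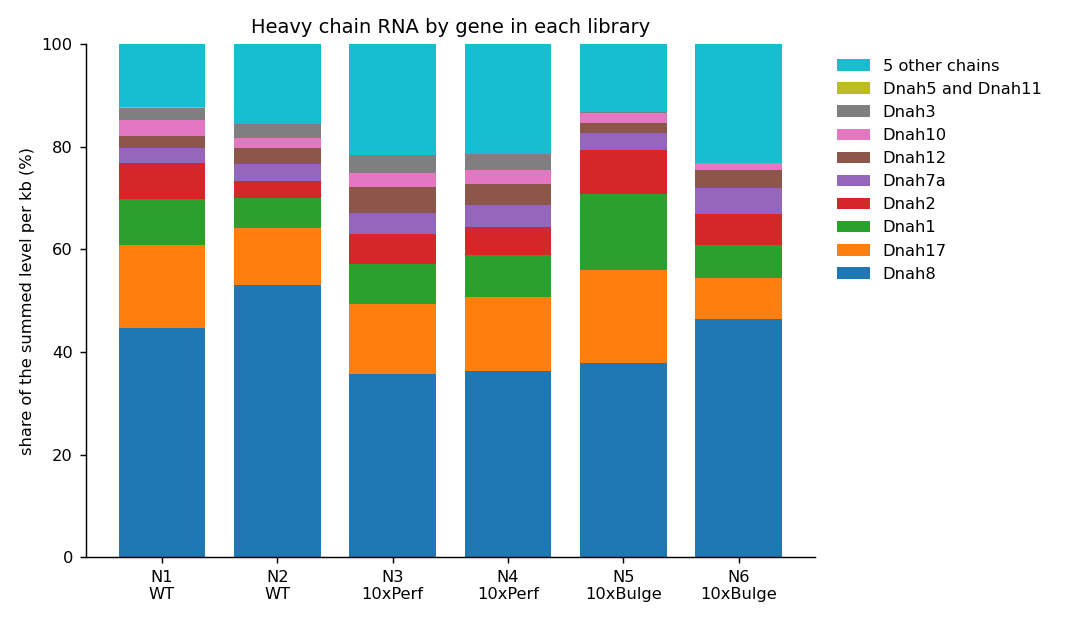
Share of each heavy chain gene in the summed normalized counts per kb of 15 axonemal dynein heavy chain genes (y axis, %), as stacked bars for the 6 libraries. Dnah8 is the largest share in every library, Dnah3 is too thin to be seen in N5 and N6, and Dnah5 with Dnah11 is at most 0.173%.

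The 5 axonemal heavy chains outside the members did not pass the test against WT. *Dnah6*, *Dnah7b*, *Dnah7c* and *Dnah14*, all of the inner arms, and *Dnah9* of somatic outer arms had log2 fold changes of -0.69, -0.40, 0.07, 0.21 and 0.46 in *10xBulge* against WT, and 0 of 5 had an unadjusted p under 0.05 in limma. *Dnah9*, the partner of *Dnah5* in distal somatic outer arms, had 295 and 429 normalized counts in WT, 502 and 337 in *10xPerf*, and 980 and 245 in *10xBulge*, and the *10xBulge* values enclosed those of WT. In *10xPerf* against WT, 0 of the 5 passed in limma, and *Dnah14* had an unadjusted p of 0.0333 (1.16, both *10xPerf* libraries above both of WT). In *10xBulge* against *10xPerf*, *Dnah6* was lower (-1.52, limma adjusted p = 0.0313), a call lost without N3 or N4. Without N6, 1 of the 5 was higher in *10xBulge* than in WT.

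The lists of the rest of the machinery, chosen with earlier results of these data known, were each counted whole, and each count stands beside the 23.0% of all genes that were lower in *10xBulge* than in WT and the 11.4% that were higher. Of 12 intermediate, light intermediate and light chains of axonemal dyneins, 5 were lower in *10xBulge* than in WT and 0 higher (median log2 fold change -1.04). *Dnali1*, a light intermediate chain of inner arms, had 6158 and 6334 normalized counts in WT and 4183 and 1313 in *10xBulge* (-1.41, limma adjusted p = 0.0841), and *Dnal4*, a light chain, 6143 and 5488 against 2633 and 1846 (-1.40, limma adjusted p = 0.0306). The other 3 called were *Nme8* (-2.55), *Casc1* (-1.17) and *Dynlrb2* (-1.19), named after their values were seen. Of 6 genes of the outer arm docking complex, which anchors outer arms on the doublet, 4 were lower and 0 higher (median -1.74), beside the same shares of all genes. *Odad4* fell by 1.34 on the log2 scale (limma adjusted p = 0.0558) and *Ccdc63*, a docking gene of the sperm tail, by 5.54, from 3619 and 4243 to 108 and 63.8 normalized counts (limma adjusted p = 1.88e-05). *Efcab1*, singled out after its values were seen, fell by 6.04, from 518 and 772 to 3.90 and 17.9, and *Odad2* was the fourth called gene (-2.14). The docking list thus held 2 genes with a larger fall than *Dnah3*. Over the 12 alternatives other than leaving out each library in turn, the docking count was 3 or 4. That of the intermediate and light chains ran from 2 to 6. The count of the intermediate and light chains also depended on which library was left out.

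Assembly factors, which fold and join arm subunits in the cytoplasm, were lower for 4 of 19 tested and higher for 0 (median -0.50), a share of lower genes near the 23.0% of all genes, with *Dnaaf9* of the list not matched in the table. *Lrrc56* fell by 1.63 (limma adjusted p = 0.0361) and *Dnaaf3* by 1.26 (limma adjusted p = 0.0692), and the other 2 called were *Lrrc6* (-1.50) and *Ccdc103* (-1.28). The count depended on the libraries, with 1 lower without N1, N3, N4 or N6, 2 without N2 and 8 without N5. It also depended on the processing: 1 was lower with only the genotypes compared and 2 at a threshold of 0.05 or with no mean-variance trend, while 2 were higher with scaling by library totals and 1 after removal of the GC trend. Of 14 chains of cytoplasmic dyneins, the motors of vesicle and intraflagellar transport, 3 were higher and 1 lower (median 0.23), beside 11.4% and 23.0% of all genes. *Dync1li1* of dynein-1 had 529.7 and 818 normalized counts in WT and 2526 and 1583 in *10xBulge* (1.60, limma adjusted p = 0.0244), and *Dync2i1* of dynein-2 had 1884 and 2178 against 477 and 896 (-1.63, limma adjusted p = 0.0259). *Dync1i1* (1.55) and *Dynlrb1* (1.12) were the other 2 higher. Without N1, 0 of these 14 passed in limma, and without N2, 1. Of 7 transcription factors of motile cilia, 5 were tested, and 4 were lower in *10xBulge* and 0 higher (median -2.54), again beside 23.0% and 11.4% of all genes. *Rfx2*, needed for tail formation in spermatids, fell by 1.52 (limma adjusted p = 0.0412) and *Foxj1*, the main activator of motile cilia genes, by 3.69, from 8557 and 6131 to 950 and 329 normalized counts (limma adjusted p = 0.000660), and *Rfx1* (-3.39) and *Rfx3* (-2.54) were also lower. *Mybl1* had a log2 fold change of 0.07 (limma adjusted p = 0.939). In *10xPerf* against WT, 0 of the 56 genes tested in these 5 lists passed in limma, and 2 had an unadjusted p under 0.05 (*Odad2* and *Dync2i1*, both higher).

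**Figure D5:**
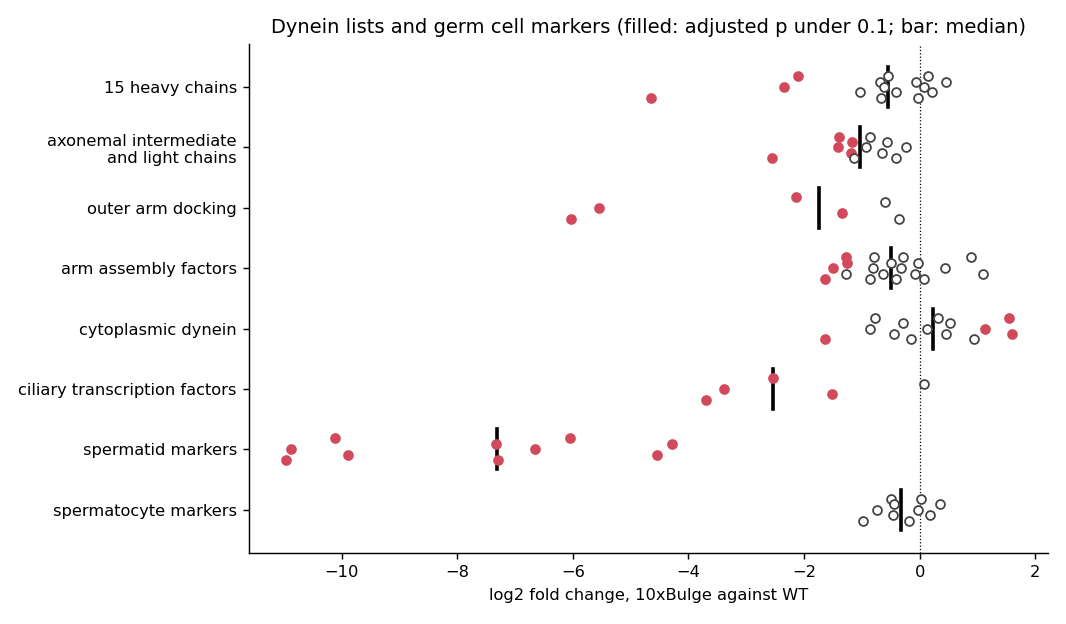
Log2 fold changes in 10xBulge against WT (x axis), with 1 point per gene for the 15 heavy chains, 5 lists of dynein-related genes and 2 lists of germ cell markers, filled where the adjusted p in limma was under 0.1, and bars for medians. The spermatid markers run from -10.97 to -4.28, and of the 15 heavy chains only Dnah3 (-4.65) reaches that range.

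Markers of other ciliated cells that a testis sample could hold were checked beside the chains of somatic cilia. Of 7 epididymis markers, *Lcn5* was at 0 in every library and 5 were under 10 normalized counts throughout, and the summed level of 220 to 277 in WT, 180 to 236 in *10xPerf* and 141 to 252 in *10xBulge* came mostly from *Rnase10*. Of 7 markers of multiciliated epithelium, *Mcidas* was under 10 in every library and *Gmnc* at most 12.8. Of the 5 tested, 2 (*Foxj1* and *Deup1*) were lower in *10xBulge* than in WT, beside 23.0% of all genes, and 3 did not pass. The summed level of those 7 was 11932 to 12679 in WT, 11668 to 13728 in *10xPerf* and 969 to 1589 in *10xBulge*. In both WT libraries most of it came from *Foxj1*, which was also counted among the transcription factors above. The part of that sum in the fall of *Dnah5* and *Dnah11* was not tested. Between *10xPerf* and WT, that sum overlapped.

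Across the 6 libraries, correlations of log2 values between pairs of members ran from -0.387 (*Dnah7a* with *Dnah11*) to 0.974 (*Dnah3* with *Dnah5*). Members thus differed widely in how alike their profiles were. The mean of the members' log2 values was 12.25 and 12.61 in WT, 12.63 and 12.37 in *10xPerf*, and 11.56 and 10.92 in *10xBulge*. The 5 tested genes most like that mean by Pearson's r over the 6 libraries were *Btbd35f22* (0.995), *Ppp4r3c-ps* (0.995), *Clec4a4* (0.995), *Gm5407* (0.993) and *1110032A03Rik* (0.993), as a description over libraries that fall into few genotypes. All but *1110032A03Rik* were at 7.21 normalized counts or less in both *10xBulge* libraries, and *Clec4a4* was at most 11.0 in any library. *1110032A03Rik* was at 2578 or more in every library.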

How the data were processed

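Of the series, the 6 testis RNA-seq libraries (2 each of WT, *10xPerf* and *10xBulge*) were used, and the MILI and MIWI immunoprecipitation libraries were not analysed here. The authors quantified single-end reads with salmon, GC correction switched on, against Ensembl transcripts of GRCm39, and deposited normalized counts per gene from DESeq2, a signal that is not whole reads: 19.4% of genes above 0 were whole multiples of 1 step in every library (tolerance 0.01), so reads were not recovered and no count test was run. The authors also deposited log2 fold changes of each knock-in against WT and the adjusted p-values of these, which were not used. The submitters' processing notes name both GRCm38 and GRCm39.

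A gene was tested if 2 or more libraries had 10 or more normalized counts. The log2(value + 1) of these 23782 genes was fitted by genotype in limma 3.58.1 (R 4.3.3), allowing a mean-variance trend, and p-values were adjusted after Benjamini and Hochberg. The threshold of 0.1 is that of the study. The procedure was tested on simulated data. The rule named all members, the other heavy chains and, in each other list, the 2 called genes with the highest mean in *10xBulge* against WT. Further genes of these lists, such as the rest of the called ones and *Mybl1*, were named after their values were seen. Members and lists were chosen with earlier results of these data known. Lengths, GC content and coordinates come from the longest GENCODE transcript or the gene on GRCm38, and promoters from RefSeq on GRCm38.p6. Alternatives were 3 scalings, 2 filters, 2 pseudocounts (0.1 and 10), a threshold of 0.05, only the genotypes compared, no mean-variance trend, loess removal (span 0.3) of GC or length trends, and leaving out each library. At the depth of these libraries, 3 reads correspond to 2.73 to 3.63 normalized counts, which covers counting error only. Exact tests used scipy 1.17.1 (Python 3.11.15), and plots matplotlib 3.10.9.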

Additional observations from a re-analysis of the deposited data

How the results depend on the processing

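In *10xBulge* against WT, *Dnah3* passed in all 18 alternatives (log2 fold change -5.08 to -4.22), as did *Dnah5* (-2.48 to -1.84). *Dnah11* passed in the 12 alternatives other than leaving out each library in turn. Scaling by library totals, which moved the median of all genes to 0.35, moved the members' median there to -0.26 and turned *Dnah1* to 0.35 and *Dnah7a* to 0.32. It turned *Dnah5* in *10xPerf* against WT to 0.037. Removal of the GC trend turned *Dnah1* to 0.048 and *Dnah7a* to 0.023 in *10xBulge* against WT. Removal of the length trend turned *Dnah17* to -0.012 in *10xPerf* against WT. The count of members lower in *10xPerf* against WT, 0 as reported, was 1 (*Dnah11*) under each of 6 settings: a trimmed mean of log ratios, at least 10 in every library, only the genotypes compared, a pseudocount of 10, and removal of the GC or of the length trend. For these changes the cause was not tested.

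Leaving out each library in turn, *10xBulge* against WT gave 2 to 5 lower members and a median of -1.09 to -0.41. *Dnah1* ran from -0.80 to 0.74, *Dnah2* from -0.27 to 0.57, *Dnah7a* from -0.44 to 0.32, *Dnah12* from -1.11 to 0.00058 and *Dnah17* from -1.38 to 0.15. In *10xPerf* against WT, 0 to 1 members were lower, *Dnah5* ran from -0.48 to 0.29, *Dnah8* from -0.68 to 0.19 and the log2 ratio of *Dnah8* to *Dnah5* from -0.49 to 0.20. In *10xBulge* against *10xPerf*, 1 to 5 members were lower, with a median of -1.12 to -0.57, and *Dnah1* ran from -1.11 to 0.43, *Dnah2* from -0.75 to 0.087 and *Dnah11* from -0.26 to 1.06. A lone library left in a genotype is assumed to vary like the others. No paired analysis was possible because the libraries carry different numbers in each genotype. With 2 libraries per genotype, the intervals of the members are wide, and a change that an interval around 0 still holds may have been missed.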
